A study of Mus musculus with 12 samples.

Results

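Collagen prolyl hydroxylases and the proteins that work with them form a group of 10 genes: P4ha1, P4ha2, P4ha3, P4hb, P3h1, P3h2, P3h3, P3h4, Crtap and Ppib. They were taken by gene symbol from a table of 56748 genes, 18334 of which passed a filter on low counts, and all 10 were present and all 10 passed the filter. The table holds poly-A RNA counts from 12 libraries of whole mouse retina, with 3 in each of 4 groups. The groups were JR5558 mice at 4 weeks, C57BL/6J mice at 4 weeks, JR5558 mice at 8 weeks and C57BL/6J mice at 8 weeks, with no treatment named. JR5558 is an inbred mouse line that forms new vessels under the retina on its own and carries the rd8 allele of Crb1. The sample titles number the retinas of each group, and each is taken here as coming from a different mouse. On that reading p-values measure the spread between mice. Total counts ran from 18029611 to 23739886. The study's title concerns proline metabolism and inhibition of prolyl 4-hydroxylase in subretinal fibrosis, and the P4ha genes and P4hb encode that enzyme.

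Prolyl hydroxylases act in the endoplasmic reticulum on newly made collagen chains. The 4-hydroxylase is built from catalytic alpha subunits, encoded by P4ha1, P4ha2 or P4ha3, and the beta subunit P4hb, which is also protein disulfide isomerase and folds many other proteins. It needs iron, oxoglutarate, oxygen and ascorbate, and the 4-hydroxyproline it makes keeps the collagen triple helix stable at body temperature. The prolyl 3-hydroxylases modify far fewer prolines. P3h1 works in a complex with Crtap, which has no catalytic activity of its own, and the cyclophilin Ppib, a prolyl isomerase. P3h2 acts mainly on collagens of basement membranes. In mice, P3h3 and the non-catalytic P3h4 are known as partners of lysyl hydroxylase 1. In human cells P4HA1 and P4HA2 are targets of the hypoxia-inducible factors, which bind a short core motif in promoters.

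The alpha subunit genes share a role and differ widely in level, so their promoters are shown. Each is the stretch of 250 bases before the RefSeq gene start (build GRCm38.p6, plus strand), at chr10:59323046-59323295 for P4ha1, chr11:54100674-54100923 for P4ha2 and chr7:100285270-100285519 for P4ha3. Capitals mark the hypoxia response core in the form ACGTG, searched on both strands, so that CACGT is the same motif read on the other strand. Other forms of the core were not searched.
P4ha1: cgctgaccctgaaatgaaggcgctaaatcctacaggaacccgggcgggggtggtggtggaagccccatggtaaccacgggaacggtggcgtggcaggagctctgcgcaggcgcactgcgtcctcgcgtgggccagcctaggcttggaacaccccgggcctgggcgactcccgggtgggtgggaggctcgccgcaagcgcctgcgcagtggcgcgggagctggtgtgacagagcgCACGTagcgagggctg
P4ha2: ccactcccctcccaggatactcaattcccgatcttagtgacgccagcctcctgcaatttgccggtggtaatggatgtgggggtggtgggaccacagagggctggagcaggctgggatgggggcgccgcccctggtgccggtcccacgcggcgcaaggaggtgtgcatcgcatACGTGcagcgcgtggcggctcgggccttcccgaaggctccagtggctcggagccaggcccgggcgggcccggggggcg
P4ha3: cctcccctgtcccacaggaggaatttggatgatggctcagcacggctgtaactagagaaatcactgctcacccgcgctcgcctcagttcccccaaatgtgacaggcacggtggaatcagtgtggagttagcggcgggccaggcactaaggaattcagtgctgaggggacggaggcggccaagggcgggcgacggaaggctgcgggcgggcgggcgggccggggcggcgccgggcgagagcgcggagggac
The P4ha1 window held 1 match, which begins 16 bases before the gene start, and the P4ha2 window held 1, which begins 78 bases before it. The P4ha3 window held 0. RefSeq promoters were matched by symbol for 8 of the 10 genes, all but P3h2 and P3h4. At least 1 match was found for 5 of the 8 (P4ha1, P4ha2, P4hb, Ppib and 1 of the windows of P3h1), and 16.6% of all 32851 promoter windows of this length held one. That share is per window, whereas the 8 genes had 9 windows, 2 of them of P3h1. The bases that follow the Ppib and Crtap windows were not found in annotated transcripts of these genes. The windows of the alpha genes were rich in G and C, at 69.6% for P4ha1, 70.0% for P4ha2 and 67.2% for P4ha3. A match describes these letters and shows no binding.

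Some differences between the groups touch every result below. Crb1, which marks the strain, averaged 175 ± 26.3 CPM (the count relative to library size, scaled by the trimmed mean of M values) in JR5558 and 502 ± 64.7 CPM in C57BL/6J at 4 weeks, and 159 ± 3.00 CPM in JR5558 and 464 ± 27.8 CPM in C57BL/6J at 8 weeks (SD, n = 3 each). The JR5558 retinas of 4 weeks held 0 to 5 counts of Xist, which is transcribed from the silenced X, and 1323 to 1846 counts of the Y-linked gene Ddx3y, while the other 9 libraries held 7772 to 22988 counts of Xist and 0 of Ddx3y. Strain and sex therefore cannot be told apart at 4 weeks, nor age and sex within JR5558, whereas the 8-week strain comparison and the C57BL/6J age comparison were each made between libraries of the same kind. Rhodopsin, the rod pigment that marks retina, took 3.61% to 4.13% of counts. These are bulk samples, in which fewer cells of a type and less RNA per cell cannot be told apart.

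By level per length (CPM per kilobase of the deposited gene length), P4hb was highest of the group and P4ha3 lowest. The deposited length need not be that of the transcripts present in retina, so orders and ratios between genes depend on it. Without division by length, the median CPM was 204 for P4hb, 71.3 for P4ha1, 49.2 for Ppib and 15.3 for P4ha2. Over all 12 retinas P4hb averaged 70.8 ± 4.28, 4.06 times P4ha1 at 17.4 ± 2.14 (SD, n = 12), and the ranges of these 2 genes did not overlap. Ppib followed at 15.1 ± 1.42, with a range that overlapped that of P4ha1, which was the higher in 10 of 12 libraries. P3h3 averaged 8.72 ± 1.62 and P3h4 6.20 ± 0.929, with overlapping ranges but P3h3 above P3h4 in 12 of 12 libraries. Crtap (3.84 ± 0.458) overlapped P3h4 in range, though P3h4 was the higher in 12 of 12 libraries, and lay above P3h1 (2.67 ± 0.246) with no overlap. P3h1 and P4ha2 (2.53 ± 0.359) were close neighbours, P3h1 being the higher in 7 of 12 libraries. P3h2 averaged 1.59 ± 0.278 and P4ha3 0.133 ± 0.0809. Of the alpha subunits, the mean level per length of P4ha1 was 6.90 times that of P4ha2 and 131 times that of P4ha3. P4hb varied least across the 12 libraries (coefficient of variation of CPM 6.04%), and P4ha3, with 3 to 21 counts a library, varied most (60.7%).

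**Figure D1:**
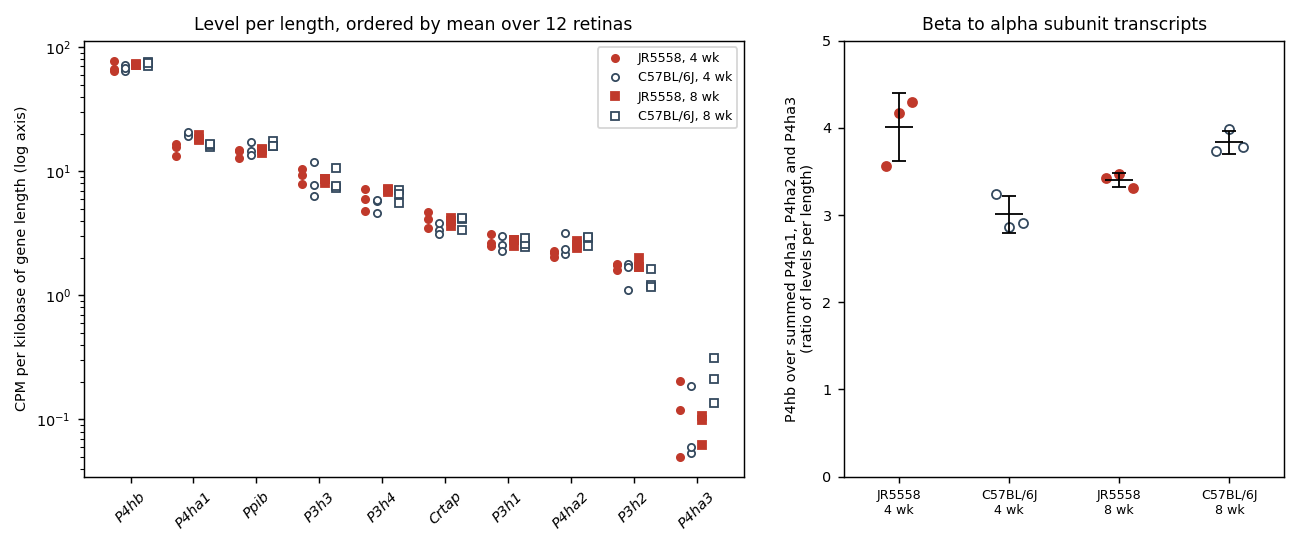
Left, level per length (CPM per kilobase, log axis) of each gene in each of the 12 retinas, ordered by the mean, from P4hb at 70.8 to P4ha3 at 0.133. Right, ratio of P4hb to the summed P4ha1, P4ha2 and P4ha3 levels per length in each retina, with mean and SD (n = 3). JR5558 lay above C57BL/6J at 4 weeks and below it at 8 weeks.

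The strain comparison at 4 weeks asks which of these genes differ in the younger JR5558 retinas. P4ha1, the main alpha subunit gene of these retinas (ENSMUSG00000019916, chromosome 10, deposited positions 59159118 to 59209126, plus strand), fell in JR5558. The deposited positions are not those of GRCm38.p6, and their build is not settled. It stood at 68.7, 54.2 and 64.6 CPM in the JR5558 retinas and at 81.4, 79.1 and 85.0 CPM in the C57BL/6J retinas. The highest JR5558 value lay below the lowest C57BL/6J value, and the JR5558 mice were more spread, with replicate 2 lowest. The log2 fold change was -0.39 ± 0.09 (SE; edgeR quasi-likelihood test, adjusted p = 0.00929), or 0.764-fold. P4ha1 was the 1 gene of the 10 past the threshold of 0.05 (6.16% of all tested genes passed, and 2.90% were lower in JR5558). It was also the 1 gene with an unadjusted p under 0.05 (19.1% of all tested genes) and the 1 whose groups did not overlap (19.6% of all tested genes). The call ended without JR5558 replicate 2 (-0.30 ± 0.09, adjusted p = 0.0593), when only the 6 libraries compared entered the fit (-0.39 ± 0.11, adjusted p = 0.0820) and with pigment epithelium markers as a covariate (-0.58 ± 0.15, adjusted p = 0.0905). The authors' deposited table gives P4ha1 a log2 fold change of -0.39 with an adjusted p of 0.0317.

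The other prolyl 4-hydroxylase genes did not pass at 4 weeks. P4ha2, another alpha subunit gene (ENSMUSG00000018906, chromosome 11), had 12.7, 13.6 and 14.1 CPM in JR5558 and 13.5, 19.98 and 14.9 CPM in C57BL/6J, so the groups overlapped and C57BL/6J replicate 2 stood high (-0.26 ± 0.14, adjusted p = 0.335). P4hb (ENSMUSG00000025130, chromosome 11) had 192, 184 and 223 CPM in JR5558 and 205, 185 and 193 CPM in C57BL/6J. Its log2 fold change of 0.04 ± 0.08 (adjusted p = 0.832) has a 95% interval from -0.12 to 0.20 on the 18.1 degrees of freedom of the edgeR test. P4ha3 held 3 to 13 counts in the JR5558 libraries and 3 to 11 in the C57BL/6J libraries, and a difference of the size of its log2 fold change (0.32 ± 0.68) was not detectable at this depth.

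The prolyl 3-hydroxylases and their partners did not pass at 4 weeks either. Crtap (ENSMUSG00000032431, chromosome 9) had the lowest adjusted p of them, with 7.26, 6.17 and 8.35 CPM in JR5558 and 5.96, 5.53 and 6.77 CPM in C57BL/6J, and these groups overlapped (0.25 ± 0.17, adjusted p = 0.468). P3h4 stood at 0.15 ± 0.15, P3h2 at 0.16 ± 0.20, P3h3 at 0.09 ± 0.18, P3h1 at 0.07 ± 0.15 and Ppib at -0.10 ± 0.10 on the log2 scale, with adjusted p from 0.656 to 0.859. In P3h3 the C57BL/6J mice alone spread widely, at 30.2, 47.0 and 24.8 CPM, against 36.6, 40.9 and 31.0 CPM in JR5558. Over the 10 genes the median log2 fold change was 0.08, with 7 positive and 3 negative values, and the median of all tested genes was -0.0012.

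**Figure D2:**
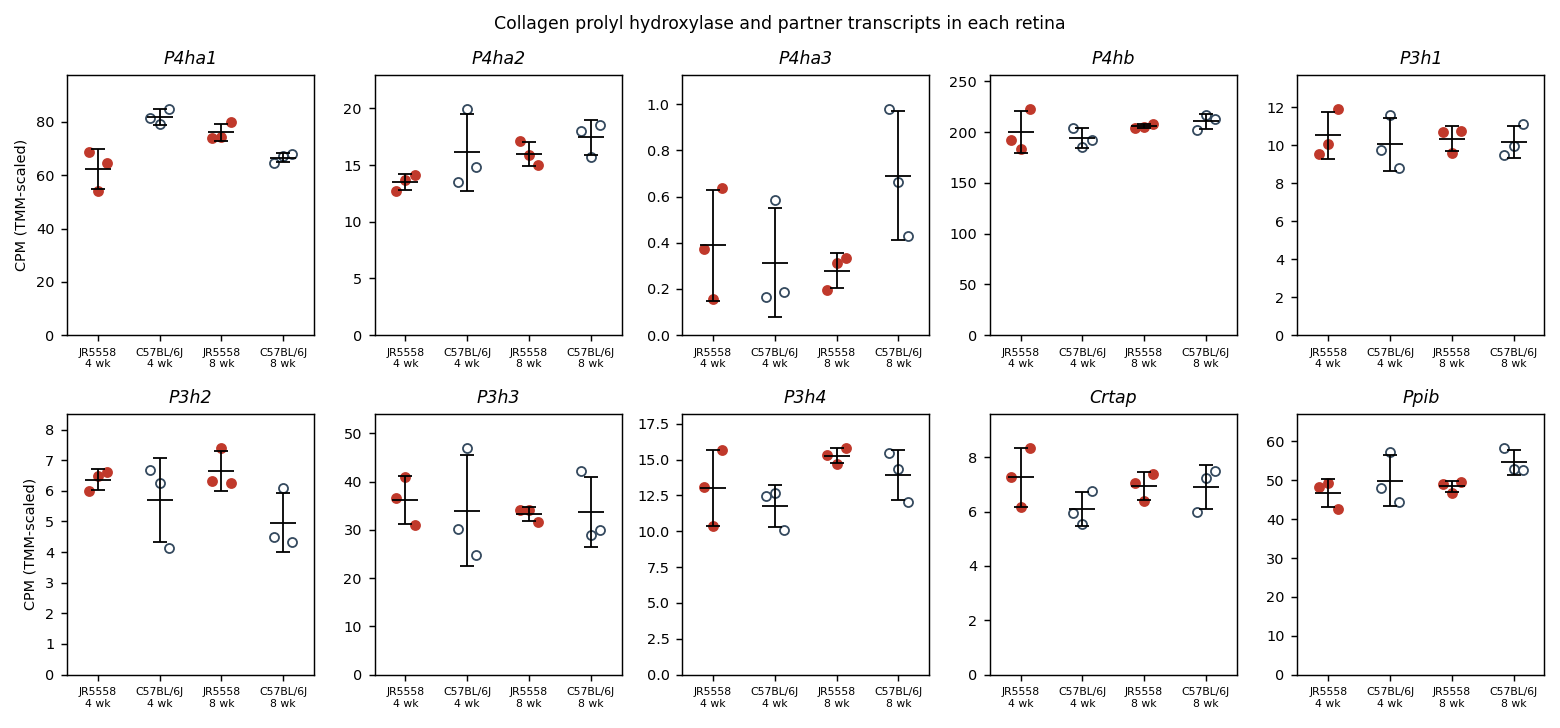
CPM of each gene in each retina (points), with mean and SD (n = 3 mice a group); filled red is JR5558 and open is C57BL/6J, at 4 weeks on the left and at 8 weeks on the right of each panel. P4ha1 in JR5558 was lower at 4 weeks (54.2 to 68.7 CPM, against 79.1 to 85.0 CPM in C57BL/6J) and had higher values at 8 weeks (74.0 to 79.9 CPM, against 64.7 to 68.1 CPM in C57BL/6J), and most other panels overlap.

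At 8 weeks P4ha1 stood on the other side. It had 74.0, 74.2 and 79.9 CPM in JR5558 and 64.7, 67.1 and 68.1 CPM in C57BL/6J. Every JR5558 value lay above every C57BL/6J value, but the log2 fold change of 0.19 ± 0.09 did not pass (edgeR, unadjusted p = 0.0415, adjusted p = 0.261, 95% interval from 0.0082 to 0.37 before any adjustment). In the authors' deposited table this comparison has a log2 fold change of 0.19 and an adjusted p of 0.0564. With only the libraries compared in the edgeR fit, P4ha1 stood at 0.20 ± 0.06 (adjusted p = 0.0501). With pigment epithelium markers as a covariate it stood at 0.06 ± 0.12 (edgeR adjusted p = 0.880). The covariate did not overlap between strains at 8 weeks (4.48 to 4.88 in JR5558, 3.68 to 4.14 in C57BL/6J). That fit therefore cannot separate strain from the covariate. Of the 10 genes, 0 passed at 8 weeks by edgeR and 0 by DESeq2, where 5.18% of all tested genes (949 genes) passed by edgeR and 1233 genes by DESeq2. At an unadjusted p under 0.05 there were 2, P4ha1 and P3h2, where 17.4% of all tested genes lay.

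P3h2 (ENSMUSG00000038168, chromosome 16) had 6.32, 7.41 and 6.24 CPM in JR5558 and 4.48, 6.08 and 4.33 CPM in C57BL/6J at 8 weeks. The groups did not overlap, although C57BL/6J replicate 2 came close to JR5558 (0.43 ± 0.20, adjusted p = 0.284). P3h2 overlaps the lncRNA Gm4524 on the opposite strand over 1055 bases in the deposited positions. Gm4524 held 28 to 85 counts a library, and since the labels leave the strandedness of the libraries undecided, reads of this overlap may belong to either gene. Gm4524 itself stood at 0.17 ± 0.33. Ppib (ENSMUSG00000032383, chromosome 9), the isomerase of the 3-hydroxylase complex, had 49.1, 46.8 and 49.5 CPM in JR5558 and 58.4, 52.8 and 52.6 CPM in C57BL/6J, again without overlap (-0.17 ± 0.10, adjusted p = 0.388). Ppib shares 1448 bases with Snx22 on the other strand, which held 6 to 35 counts a library, and Crtap shares 2096 bases with the lncRNA 4930520O04Rik, with 0 to 9 counts.

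P4ha3 completed the genes whose groups did not overlap at 8 weeks, with 4, 7 and 7 counts in JR5558 and 21, 12 and 8 counts in C57BL/6J (-1.29 ± 0.66, adjusted p = 0.325). These 4 of 10 genes compare with 30.2% of all tested genes whose groups did not overlap at this age. P4ha2 stood at -0.12 ± 0.14, P4hb at -0.03 ± 0.08, P3h1 at 0.02 ± 0.15, P3h3 at -0.02 ± 0.18, P3h4 at 0.13 ± 0.15 and Crtap at 0.01 ± 0.17, with adjusted p from 0.715 to 0.990. P4hb was tight here, with 204, 205 and 208 CPM in JR5558 and 202, 217 and 213 CPM in C57BL/6J, and its 95% interval ran from -0.20 to 0.13. Taking the mean of both ages, 0 of 10 genes passed by edgeR and 0 by DESeq2, and 0 had an unadjusted p under 0.05. Over all tested genes 11.2% (2050 genes) passed by edgeR and 24.2% had such a p, and DESeq2 called 2438 genes. The values of that mean ran from -0.49 for P4ha3 to 0.29 for P3h2.

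**Figure D3:**
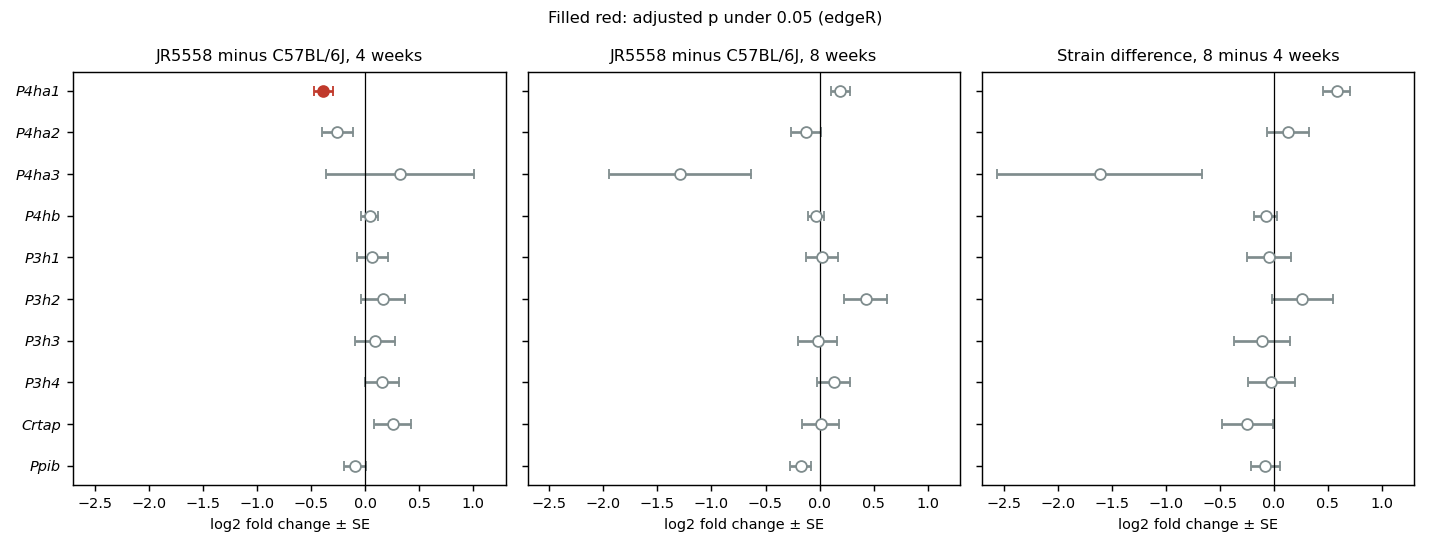
Log2 fold change with SE for each gene, JR5558 minus C57BL/6J at 4 weeks (left), at 8 weeks (middle) and the 8-week minus the 4-week strain difference (right). P4ha1 at 4 weeks (-0.39, filled red) is the 1 value past the threshold, and P4ha3 has the widest error.

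The change of the strain difference with age was tested directly. For P4ha1 the 8-week minus the 4-week strain difference was 0.58 ± 0.12 on the log2 scale (unadjusted p = 0.000169, adjusted p = 0.118), which did not pass by edgeR although only 24 of 18334 genes had a smaller p. By DESeq2 it passed (0.58 ± 0.13, adjusted p = 0.00453). In all, 0 of the 10 genes passed by edgeR and 1 by DESeq2, and 1 had an unadjusted p under 0.05. Over all tested genes 0.0927% (17 genes) passed by edgeR and 7.19% had such a p, and DESeq2 called 63 genes. The other 9 genes ran from -1.61 ± 0.95 for P4ha3 to 0.26 ± 0.28 for P3h2, with adjusted p from 0.765 to 0.994. Groups that did not overlap at either age and lay in opposite orders were seen in P4ha1 alone among the 10, and in 0.845% of tested genes, whichever strain was the higher at 4 weeks.

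The age comparisons show the parts of this pattern. In JR5558, P4ha1 averaged 76.0 ± 3.35 CPM at 8 weeks and 62.5 ± 7.45 CPM at 4 weeks, a log2 fold change of 0.28 ± 0.09 (edgeR adjusted p = 0.107, DESeq2 adjusted p = 0.0454; 0.0495 in the authors' deposited table). In C57BL/6J it averaged 66.6 ± 1.78 CPM at 8 weeks and 81.9 ± 2.99 CPM at 4 weeks, a log2 fold change of -0.30 ± 0.09 (edgeR adjusted p = 0.136, DESeq2 adjusted p = 0.0465; 0.101 in the authors' deposited table). The 4-week and 8-week values did not overlap in either strain. These age comparisons share their samples with the strain comparisons. In JR5558, 0 of 10 genes passed by edgeR against 1.51% of all tested genes (277 genes). By DESeq2 1 passed, where 746 genes were called in all, and 1 had an unadjusted p under 0.05 (16.9% of all tested genes). In C57BL/6J, 0 of 10 passed by edgeR against 0.431% of all tested genes (79 genes). By DESeq2 1 passed, where 407 genes were called in all, and 1 had an unadjusted p under 0.05 (14.4% of all tested genes). P4ha1 was also the 1 gene whose ages did not overlap in C57BL/6J, as in 19.0% of all tested genes. In JR5558, P4ha1 and P4ha2 were the 2 genes whose ages did not overlap (24.3% of all tested genes). P4ha2 had 17.1, 15.9 and 14.96 CPM at 8 weeks and 12.7, 13.6 and 14.1 CPM at 4 weeks in JR5558 (0.25 ± 0.14, adjusted p = 0.388). P3h4 had log2 differences of 0.23 ± 0.15 in JR5558 and 0.25 ± 0.15 in C57BL/6J between 8 and 4 weeks, neither past the threshold (adjusted p = 0.476 and 0.478).

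Within the 4-hydroxylase, P4ha1 supplied most alpha subunit transcript in every library by level per length, which depends on the deposited gene lengths. Its share of the summed P4ha1, P4ha2 and P4ha3 level per length was 86.8% ± 1.56 in JR5558 and 88.1% ± 2.69 in C57BL/6J at 4 weeks, and 87.4% ± 1.05 in JR5558 and 84.3% ± 1.302 in C57BL/6J at 8 weeks (SD, n = 3). The strain difference over both ages was 0.908 percentage points (exact permutation test within ages, 2-sided, p = 0.465; adjusted over 3 ratios 0.56). Without 1 library it ran from 0.133 points (without C57BL/6J replicate 2 of 4 weeks) to 1.35 points (without C57BL/6J replicate 1 of 4 weeks), with 0.480 points without JR5558 replicate 1 of 4 weeks and 0.600 points without C57BL/6J replicate 1 of 8 weeks. At 8 weeks the shares did not overlap, at 86.5% to 88.6% in JR5558 and 83.1% to 85.7% in C57BL/6J (exact permutation test, p = 0.1, as low as 3 mice a group can give), and at 4 weeks they overlapped (p = 0.6). The ratio of P4hb to the summed alpha level per length was 3.56, 4.17 and 4.30 in JR5558 and 3.25, 2.86 and 2.91 in C57BL/6J at 4 weeks. At 8 weeks it was 3.43, 3.47 and 3.31 in JR5558 and 3.74, 3.99 and 3.78 in C57BL/6J. The groups separated at each age in opposite orders (p = 0.1 at either age by an exact permutation test, which cannot give less with 3 mice a group), so the strain difference over both ages was small (0.12 on the log2 scale, p = 0.295, adjusted over 3 ratios 0.56). The 8-week minus the 4-week strain difference of this ratio was -0.58 on the log2 scale, given as a description, since it rests on the same P4ha1 counts as the gene's own test. For Crtap over P3h1, partners in 1 complex, the ratio of levels per length was 1.4997 ± 0.164 in JR5558 and 1.34 ± 0.318 in C57BL/6J at 4 weeks, and 1.46 ± 0.0299 in JR5558 and 1.47 ± 0.106 in C57BL/6J at 8 weeks, with p = 0.56 over both ages by the exact permutation test.

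Cell type markers also differed between the strains. Of 20 tested pigment epithelium markers 15 rose and 0 fell at 4 weeks, and 5 rose and 0 fell at 8 weeks. Their summed level was 1024 to 1238 CPM in JR5558 and 672 to 821 CPM in C57BL/6J at 4 weeks, and 1028 to 1238 CPM in JR5558 and 733 to 914 CPM in C57BL/6J at 8 weeks. It is the mean log2 CPM of this list that, as a covariate, ended the P4ha1 call at 4 weeks (edgeR adjusted p = 0.0905). The log2 fold change moved further from 0 in that fit, from -0.39 to -0.58, while its SE grew from 0.09 to 0.15. At 4 weeks the covariate was 4.44 to 4.83 in JR5558 and 3.11 to 4.02 in C57BL/6J. Since these values did not overlap, the fit cannot separate strain from the level of these markers. Of 14 Müller glia markers 8 rose and 1 fell at 4 weeks, with summed levels of 7163 to 8103 CPM in JR5558 and 6105 to 7164 CPM in C57BL/6J. Of 12 microglia and macrophage markers 6 rose, with 89.1 to 103 CPM in JR5558 and 61.3 to 73.3 CPM in C57BL/6J at 4 weeks. At 8 weeks 4 glia markers rose and 1 fell, and 5 microglia and macrophage markers rose. Of 11 tested fibroblast markers 0 passed at 4 weeks by edgeR and 0 by DESeq2 (2 at an unadjusted p under 0.05), and 1 fell at 8 weeks. Their summed level was 357 to 389 CPM in JR5558 and 293 to 389 CPM in C57BL/6J at 4 weeks, and 356 to 399 CPM in JR5558 and 387 to 411 CPM in C57BL/6J at 8 weeks. Col1a1, 1 of these markers, had only 1.03 to 2.52 CPM in JR5558 and 0.947 to 1.75 CPM in C57BL/6J at 4 weeks. The sum thus rests on more abundant markers of the list and is no measure of fibroblast number. The median log2 fold change was 0.59 at 4 weeks (8 of 11 positive) and -0.33 at 8 weeks (2 of 11 positive). Of 12 endothelial markers 2 rose and 0 fell at 4 weeks, with summed levels of 472 to 487 CPM in JR5558 and 347 to 380 CPM in C57BL/6J. At 8 weeks 1 rose and 1 fell, with summed levels of 431 to 447 CPM in JR5558 and 357 to 364 CPM in C57BL/6J. The median log2 fold change of this list was 0.06 at 4 weeks and -0.19 at 8 weeks. Only 3 of the 12 were positive at 8 weeks, so the sum and most of its markers went in opposite directions there. Of 8 tested pericyte and smooth muscle markers 1 rose at 4 weeks, with 137 to 179 CPM in JR5558 and 116 to 150 CPM in C57BL/6J. At 8 weeks 0 of the 8 passed by edgeR (1 by DESeq2, 1 unadjusted), with 106 to 114 CPM in JR5558 and 112 to 121 CPM in C57BL/6J. Of 12 rod markers 0 passed at 4 weeks by edgeR or DESeq2 (2 unadjusted), with 61979 to 69457 CPM in JR5558 and 64203 to 69271 CPM in C57BL/6J. At 8 weeks 3 rod markers fell, with 64940 to 66939 CPM in JR5558 and 73028 to 76342 CPM in C57BL/6J. Of 3 tested skeletal muscle markers 1 fell at each age, with 7.34 to 8.20 CPM in JR5558 and 7.69 to 9.35 CPM in C57BL/6J at 4 weeks, and 6.25 to 6.72 CPM in JR5558 and 6.52 to 9.01 CPM in C57BL/6J at 8 weeks. Of 10 tested lens markers 0 passed at 4 weeks by edgeR or DESeq2 (3 at an unadjusted p under 0.05) and 0 at 8 weeks (0 unadjusted). Their summed level was 2.41 to 37.8 CPM in JR5558 and 10.5 to 152 CPM in C57BL/6J at 4 weeks, and 11.5 to 69.7 CPM in JR5558 and 7.70 to 52.1 CPM in C57BL/6J at 8 weeks. The median log2 fold change of the lens list, at -1.63 for 4 weeks and 0.32 for 8 weeks, turned with age in the same order as P4ha1. The summed lens levels of the strains overlapped at both ages. Medians also turned for pericyte and smooth muscle markers (0.30 and -0.12), fibroblast markers and endothelial markers, in the opposite order. Of all these lists 1 marker, a lens gene, was at 0 in every library. The part of the other lists in the P4ha1 result was not tested, and the covariate fit cannot decide that of pigment epithelium.

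Genes of related steps were described beside the group, and their counts are to be read against the 6.16% of all tested genes that passed at 4 weeks and the 5.18% that passed at 8 weeks by edgeR. DESeq2 called 1410 genes at 4 weeks and 1233 at 8 weeks. Of 12 other collagen chaperones and secretion factors, among them the collagen chaperone Serpinh1 (0.34 ± 0.17 at 4 weeks, 0.06 ± 0.17 at 8 weeks) and the isomerase Fkbp10 (0.34 ± 0.20 and 0.11 ± 0.20), 0 passed at either age by edgeR and 0 by DESeq2. At an unadjusted p under 0.05 there were 1 at 4 weeks and 2 at 8 weeks. Their median log2 fold change was 0.15 at 4 weeks and 0.08 at 8 weeks, against -0.0012 and -0.0007 over all tested genes. Of 10 enzymes of collagen lysines, 1 fell at 4 weeks, and 0 passed at 8 weeks by edgeR or DESeq2 (0 unadjusted). It was Plod2, the lysyl hydroxylase of collagen telopeptides (-0.51 ± 0.14, edgeR adjusted p = 0.0320). Of 39 tested collagen chains, the substrates of these enzymes, 4 rose and 0 fell at 4 weeks and 1 rose at 8 weeks. Col24a1, a fibrillar collagen chain, rose at both ages, by 2.65 ± 0.26 at 4 weeks (edgeR adjusted p = 1.73e-06) and 2.87 ± 0.27 at 8 weeks (edgeR adjusted p = 9.70e-07). Col26a1 (0.82 ± 0.20) and Col20a1 (0.53 ± 0.14) rose at 4 weeks and stood at 0.30 ± 0.20 and 0.32 ± 0.14 at 8 weeks. The 8-week minus the 4-week difference missed the threshold for Col26a1 (-0.52 ± 0.29) and Col20a1 (-0.22 ± 0.19). The median of the 39 chains was 0.25 at 4 weeks and 0.04 at 8 weeks.

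Of 22 genes of the protein disulfide isomerase family and of folding in the endoplasmic reticulum, where P4hb belongs, 1 rose at 4 weeks, and 0 passed at 8 weeks by edgeR (1 by DESeq2, 2 unadjusted). It was Txndc5, a disulfide isomerase (0.30 ± 0.08, edgeR adjusted p = 0.0356), and the medians were -0.03 and -0.08. Of 14 other cyclophilins, relatives of Ppib, 0 passed at 4 weeks by edgeR (2 by DESeq2, 5 unadjusted) and 1 rose at 8 weeks, Ppwd1 (0.61 ± 0.14, edgeR adjusted p = 0.0142). Of 8 other prolyl hydroxylases and oxygenases of the same cofactor class, 1 fell at 4 weeks, and 0 passed at 8 weeks by edgeR (0 by DESeq2, 2 unadjusted). It was Hif1an, the asparaginyl hydroxylase that inhibits hypoxia-inducible factors (-0.42 ± 0.09, edgeR adjusted p = 0.00650). Of 18 genes of ascorbate, iron and oxoglutarate supply, Ftl1, the ferritin light chain, rose at both ages, by 0.35 ± 0.07 at 4 weeks and 0.35 ± 0.07 at 8 weeks (edgeR adjusted p = 0.00463 and 0.00447). Ftl1 has near-identical copies in the mouse genome, so its counts are uncertain.

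Of 21 tested hypoxia response genes, Car12, a carbonic anhydrase, rose (1.98 ± 0.40, edgeR adjusted p = 0.00427) and Pfkfb3, a glycolytic regulator, fell (-0.42 ± 0.11, edgeR adjusted p = 0.0295) at 4 weeks, and 0 passed at 8 weeks by edgeR (0 by DESeq2, 2 unadjusted). Their log2 fold changes were positive in 6 of 21 genes at 4 weeks (median -0.13) and in 17 of 21 at 8 weeks (median 0.09). Over all tested genes 49.8% were positive at 4 weeks and 49.9% at 8 weeks. The 8-week minus the 4-week difference was positive in 18 of the 21, with a median of 0.17 against -0.00042 over all tested genes, and 0 of the 21 passed that test by edgeR (0 by DESeq2, 6 unadjusted). P4ha1 is not a gene of this list.

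**Figure D4:**
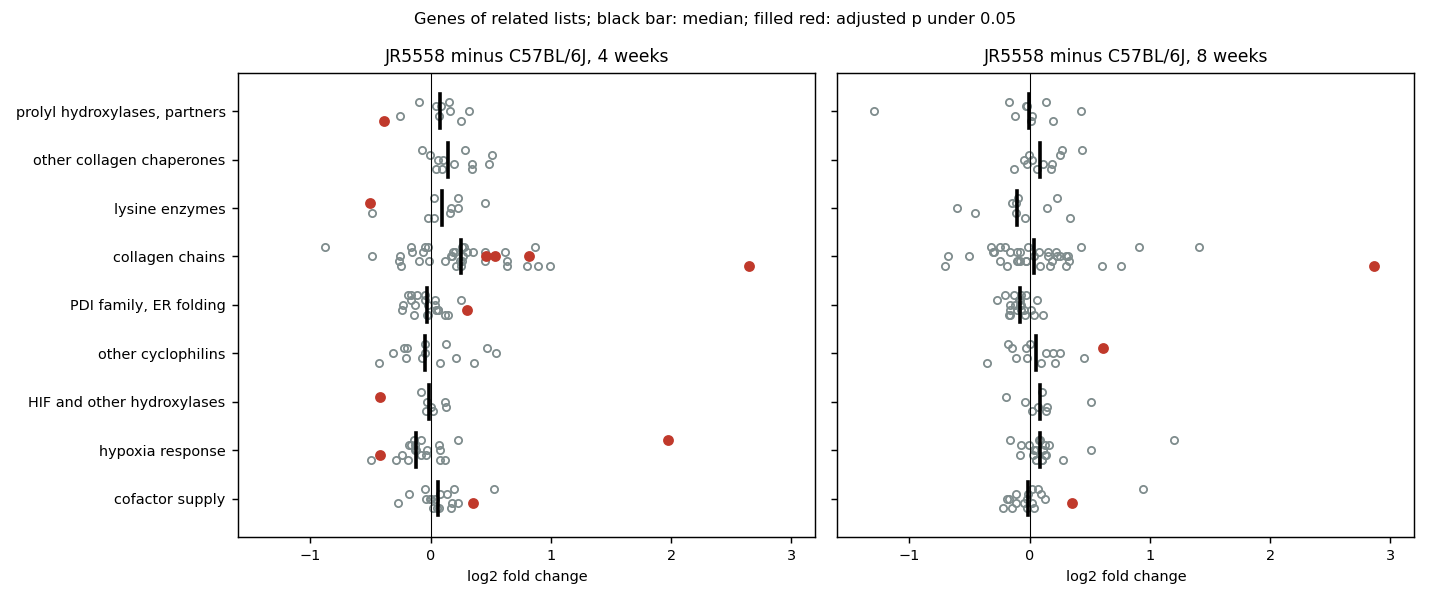
Log2 fold change, JR5558 minus C57BL/6J, of each tested gene of the group and of 8 related lists at 4 weeks (left) and 8 weeks (right); the black bar is the list's median and filled red marks an adjusted p under 0.05. Most genes lie near 0, and Col24a1 lies far right at both ages (2.65 and 2.87).

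Over the 12 libraries, the genes with log2 CPM most like that of P4ha1 were sought among 12247 tested genes with a mean of at least 5 CPM. The highest Pearson correlations were 0.929 for Crk, 0.900 for Cmtr2, 0.900 for Mylip, 0.900 for Tmf1 and 0.897 for B4galt6 (n = 12 libraries, which share their groups and depth). This is a description of the nearest of many candidates. Each of the 5 shared the order of P4ha1, which follows from their choice by likeness over the same libraries. Crk stood at -0.21 ± 0.07 at 4 weeks and 0.08 ± 0.07 at 8 weeks, and Mylip at -0.32 ± 0.09 and 0.19 ± 0.09. Cmtr2, Mylip and B4galt6 passed at 4 weeks, and Crk and Tmf1 did not. The lowest edgeR adjusted p of the 5 was 0.276 at 8 weeks and 0.253 for the change with age.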

How the data were processed

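Whole retinas, taken as those of 12 mice, were profiled by paired-end sequencing of poly-A RNA. The submitters' processing notes name fastp, HISAT2 (2.0.5), featureCounts (1.5.0-p3) and mm10. The authors deposited unnormalized read counts for every library, FPKM values (used here as an alternative for the ratios), and for each of their comparisons a log2 fold change, a p-value and its adjusted value, from a test that is not given in the sources used here. A normalized signal, the mean of each group, was deposited by the authors and left unused.

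Counts were tested here in edgeR 4.0.16 (R 4.3.3, limma 3.58.1), after filterByExpr with a minimum count of 10 and a minimum total of 15 and with TMM scaling. The quasi-likelihood model held a mean for each of the 4 groups and used all 12 libraries. Each of the 6 contrasts was adjusted by the Benjamini-Hochberg method over 18334 genes (threshold 0.05). Log2 CPM used a prior count of 2. The ± beside a log2 fold change is its standard error, and beside a level it is the SD. Ratios of levels were tested by exact permutation of mice, with 20 splits at each age. The fits were tested on simulated data for the 4-week strain comparison, which recovered 33 of 50 planted 1.5-fold changes and 46 of 50 planted 2-fold changes. Of 189 calls, 10 were false. No change as small as that of P4ha1 was planted, and no gene with counts as low as those of P4ha3 was used.

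Members and lists were chosen with earlier results of these data known. All 10 members are named. Each related list gives at most 3 genes past the threshold per strain comparison, and the 5 genes most like P4ha1 are named, as are Crb1, Xist and Ddx3y as checks. Serpinh1, Fkbp10 and Gm4524 were named after their values were seen. Alternatives were RLE scaling, other filters, deposited FPKM and an added count of 1 for the ratios, DESeq2 1.42.0, fewer libraries, a replicate block and a pigment epithelium covariate.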

Additional observations from a re-analysis of the deposited data

Results flagged for a closer look

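The strain difference of P4ha1 changed with age by 0.58 ± 0.12 on the log2 scale. It drew attention because all 3 JR5558 retinas lay below all 3 C57BL/6J retinas at 4 weeks and above them at 8 weeks, an order seen in 0.349% of all tested genes (0.845% with the reverse order included). The test of the difference itself missed the threshold by edgeR (adjusted p = 0.118) and passed by DESeq2 (adjusted p = 0.00453). The JR5558 retinas of 4 weeks also differ from the other 9 in sex-linked genes, which cannot be told apart from age and strain in this difference.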

How the results depend on the processing

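At 4 weeks the count of 1 member past the threshold became 0 with the pigment epithelium covariate and with the fit of only the groups compared, and ran from 0 to 1 when 1 library was left out. It was 0 at 8 weeks and for the mean of both ages in every alternative. DESeq2 called 1 member, P4ha1, in each age comparison and in the change of the strain difference with age, and the fit with no filter on low counts called 1 there (P4ha1, 0.60 ± 0.14, adjusted p = 0.00660). Left-out libraries gave 0 in these 3, with P4ha1 at 0.49 to 0.66 for the change with age (adjusted p 0.0720 to 0.449). Same-numbered libraries did not deviate together over all genes (correlations -0.11 to 0.087). The labels do not say whether the numbers pair the mice, and these correlations cannot settle it. The replicate block gave 1 member at 4 weeks and 0 elsewhere, and changed no call. Directions of uncalled genes turned with the covariate. At 4 weeks P4ha2 was 0.18, P4hb -0.060, Crtap -0.011 and Ppib 0.13, and at 8 weeks P4ha2 was 0.17, P3h3 0.40 and Crtap -0.18. They also turned when 1 library was left out. At 4 weeks the ranges were -0.20 to 1.09 for P4ha3, -0.047 to 0.10 for P4hb, -0.033 to 0.17 for P3h1, -0.026 to 0.29 for P3h2, -0.10 to 0.38 for P3h3 and -0.17 to 0.00034 for Ppib. At 8 weeks they were -0.027 to 0.10 for P3h1, -0.12 to 0.18 for P3h3 and -0.086 to 0.079 for Crtap. Without a turn of sign, the 4-week values ran from 0.0053 to 0.29 for P3h4, from -0.37 to -0.091 for P4ha2 and from 0.14 to 0.35 for Crtap. The Crtap over P3h1 difference ran from -0.0038 to 0.17 on the log2 scale. The cause of these moves was not tested. Deposited FPKM left the 3 ratios as they were, since scaling cancels within a library. Counts over all genes differed most for the change with age, 17 against 96 with no filter and 63 by DESeq2, for C57BL/6J age, 79 against 445 with no filter, 407 by DESeq2 and 22 with only the groups compared, and for JR5558 age, 277 against 854 with no filter, 746 by DESeq2 and 544 with only the groups compared. For strain they were 1130 against 558 (only the groups compared) and 221 (covariate) at 4 weeks, and 949 against 2183 and 353 at 8 weeks, and for the mean of both ages 2050 against 321 with the covariate. Leaving out 1 library gave 538 to 649 at 8 weeks, 16 to 125 for C57BL/6J age, 63 to 689 for JR5558 age and 6 to 38 for the change with age. P4ha3, at 3 to 21 counts a library, is limited by depth.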
